A study of Rattus norvegicus with 12 samples.

Results

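The miR-26 family was represented on the rat array by 2 of its 677 miRNAs, rno-miR-26a and rno-miR-26b, which were picked by name with their star strands left out. Both were measured in soleus muscle of 12 male Sprague-Dawley rats at 1 year of age, with 1 one-colour Agilent array per rat. The comparison asked whether miRNA levels in the muscle of adult offspring differ with the diet of the mother. The control group held 6 offspring of control dams, and the high fat group held 6 offspring of dams that ate a high fat diet through pregnancy and lactation. By the paper's methods this diet, which was also richer in sucrose, began some weeks before mating. Only the mothers were given the high fat diet, and the labels name no gene alteration or drug in either group. Each of the 2 array slides carried 3 rats of either group. The labels do not say which rats were littermates, so p-values measure the spread between these rats only.

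MicroRNAs are short RNAs that pair with messenger RNAs, mainly through the seed, and lower the stability or translation of their targets. The genes of the miR-26 family lie in introns of the Ctdsp genes, which code for small phosphatases of the C-terminal domain of RNA polymerase II. The family is known for lowering Ezh2, a histone methyltransferase that holds back muscle differentiation, for targeting Smad1 and Smad4 of the TGF-beta and BMP pathways, and, in liver, for effects on insulin sensitivity. Myc represses its transcription in tumour cells.

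The mature sequences are shown because the members carry the same seed and differ at few bases, which bears on any reading of their ratio. They are taken from RefSeq on the build GRCr8, 5′ to 3′, with the seed (bases 2 to 8 from the 5′ end) in capitals.
rno-miR-26a-5p: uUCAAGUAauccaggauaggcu
rno-miR-26b-5p: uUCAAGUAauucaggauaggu
The sequence of miR-26a-5p spans 22 bases at chr8:127633063-127633084 on the plus strand, and that of miR-26b-5p 21 bases at chr9:83425723-83425743 on the plus strand. Over the 21 positions they share, 19 bases were identical (90.5%). The 2 differences were C11U and C21U, with the base of miR-26a first and positions counted from the 5′ end, and both lay outside the seed. The G and C content was 40.9% for miR-26a-5p and 33.3% for miR-26b-5p. Of 693 rat mature miRNAs in the table, only these 2 had the seed UCAAGUA.

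The hairpins are shown to place both arms, which stand in capitals (the 5p arm first, then the 3p arm).
Mir26a: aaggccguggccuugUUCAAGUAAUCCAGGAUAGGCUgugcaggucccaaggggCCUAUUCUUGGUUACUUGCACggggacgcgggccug
Mir26b: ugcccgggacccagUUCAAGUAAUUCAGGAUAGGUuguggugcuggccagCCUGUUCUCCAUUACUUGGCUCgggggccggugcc
Mir26a, 90 bases at chr8:127633048-127633137, lies inside the span of Ctdspl, and Mir26b, 85 bases at chr9:83425709-83425793, inside the span of Ctdsp1. The 3p arms were less alike than the 5p arms, with 14 identical bases over 21 shared positions. The star strands miR-26a* and miR-26b*, which come from the 3p side of the hairpin, were detected on 0 of 12 arrays and were listed at 0.1 throughout, the value given to undetected miRNAs. This was common for star names, of which 187 of 240 were detected on no array.

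The deposited value is the total signal of a miRNA, in arbitrary signal units, and it was not normalized between arrays. Each array was therefore divided by a brightness of its own, the 75th percentile over 162 miRNAs with a detection on every array (864 to 1911 signal units). Between 177 and 220 miRNAs were detected per array, and 432 of 677 on none. One array stood apart. The miRNAs miR-499 and miR-208b are encoded in slow myosin genes and are used here as slow fibre markers. Their summed scaled signal was 366 in rat H3 of the high fat group and 4588 to 9249 in the other 11 rats. That of the skeletal muscle miRNAs miR-1, miR-133a, miR-133b and miR-206 was 244719 in H3, within the 142443 to 280572 of the others. This sum does not describe each of them. The log2 fold change of miR-206, high fat minus control, was -0.40 with H3 and -0.029 without it. H3 thus lowered the high fat mean of miR-206. For miR-133a the values were 0.038 and -0.070. The soleus is a slow muscle, and the paper's methods name it for all the rats. H3 was far below the other rats in the slow fibre markers, so results are given with and without this rat.

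Both members were detected on all 12 arrays and were among the brighter miRNAs. The mean scaled signal of miR-26a, 13423 ± 1775 (SD, n = 12), was the 8th of 677, and that of miR-26b, 4434 ± 773 (SD, n = 12), the 30th. On single arrays, miR-26a took places 5 to 10 and miR-26b places 22 to 31. The neighbours of miR-26a were miR-23a at 14430 ± 3020 (SD, n = 12) and miR-29c at 12760 ± 1242 (SD, n = 12). Those of miR-26b were miR-16 at 4449 ± 668 (SD, n = 12) and miR-133a* at 4301 ± 798 (SD, n = 12). All 4 distances to a neighbour were within 1 SD. Probes differ in their response, so these places order signals and not amounts of RNA.

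In control offspring the scaled signal of miR-26a was 12872 in C73, 12504 in A110, 12652 in C60, 16777 in H10, 13501 in A89 and 16192 in A75. In offspring of high fat-fed dams it was 13307 in C51, 11297 in H3, 15353 in H1, 11941 in C25, 13118 in H20 and 11565 in A37. The groups overlapped over most of their range, with the highest 2 values in control rats of the second slide and the lowest 3 in the high fat group. The means were 14083 ± 1900 (SD, n = 6) and 12764 ± 1509 (SD, n = 6).

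For miR-26b the control values were 4444 in C73, 4054 in A110, 3629 in C60, 5796 in H10, 4914 in A89 and 5330 in A75. The high fat values were 3830 in C51, 2917 in H3, 4744 in H1, 4575 in C25, 4723 in H20 and 4255 in A37. The groups overlapped, the 3 highest values were again in control rats of the second slide, and H3 had the lowest value. The means were 4694 ± 809 (SD, n = 6) and 4174 ± 706 (SD, n = 6), and the high fat mean was 4425 ± 386 (SD, n = 5) without H3.

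As a measure of a single array, the error given by the scanner software was 7.32 to 7.51% of the signal for miR-26a and 7.11 to 7.13% for miR-26b. The coefficient of variation of the scaled signal over the 12 rats, which also takes in the differences between animals and slides, was 13.2% for miR-26a and 17.4% for miR-26b.

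**Figure D1:**
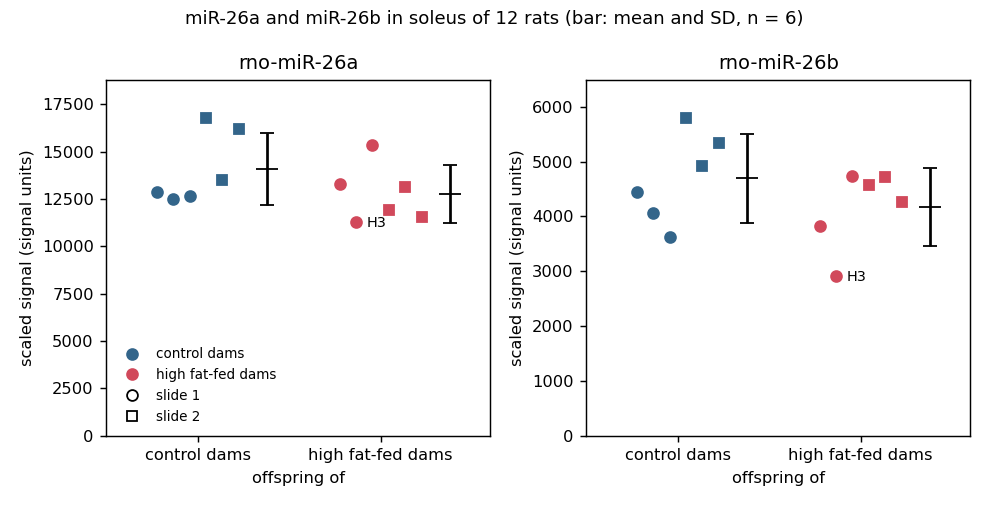
Scaled signal (signal units) of miR-26a (left) and miR-26b (right) in each of 12 rats, by the diet of the dam (colour) and the array slide (marker), with the mean and SD of 6 rats beside each group. The groups overlap for both members, and H3 is the lowest rat in each panel.

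The diet of the dam was not followed by a difference in either member that passed the test. The log2 fold change, high fat minus control, was -0.14 for miR-26a (SE 0.13, 95% interval -0.42 to 0.14) and -0.17 for miR-26b (SE 0.16, 95% interval -0.52 to 0.18), or 0.908-fold and 0.888-fold. The adjusted p was 0.700 for each (limma, Benjamini-Hochberg, 193 miRNAs with a detection on 6 arrays or more). Exact permutation of the rats between the diets (two-sided, 924 assignments) gave p = 0.193 for miR-26a and p = 0.292 for miR-26b. Over all tested miRNAs, 0 of 193 (0%) had an adjusted p under 0.05 and 2 of 193 (1.04%) an unadjusted p under 0.05, and neither member was among these. Without H3 the log2 fold changes were -0.11 and -0.072.

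The sign of these differences depended on the scaling of the arrays. Of the 193 miRNAs, 154 had a negative log2 fold change, with a median of -0.17, and the members lay close to it, at 0.028 from the median for miR-26a and -0.0036 for miR-26b. A smaller log2 fold change was found for 112 miRNAs than for miR-26a and for 93 than for miR-26b, so both stood near the middle of all miRNAs. Unscaled, the log2 fold changes were 0.17 and 0.14, beside a median of 0.14 over all tested miRNAs. With the 75th percentile over all 677 miRNAs, most of them undetected on an array, they were 0.032 and 0.00061, and after quantile normalization -0.024 and 0.00095. The 75th percentile itself was 1243 ± 279 (SD, n = 6) in control and 1530 ± 289 (SD, n = 6) in high fat arrays, 1.24-fold higher in the latter (exact two-sided permutation test, p = 0.102).

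**Figure D2:**
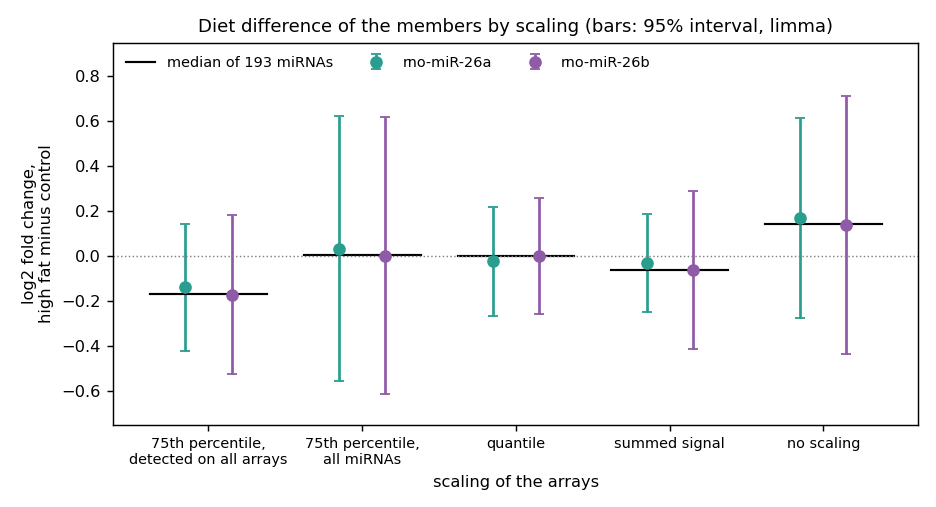
Log2 fold change, high fat minus control, of both members (points, with 95% intervals from limma) under 5 ways of scaling the arrays, with the median of the 193 tested miRNAs as a black line. The members follow the median of all miRNAs from -0.17 with the main scaling to 0.14 without scaling, and each interval includes 0.

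The slides gave different pictures. On the first slide the scaled signal of miR-26a was 12676 ± 185 (SD, n = 3) in control and 13319 ± 2028 (SD, n = 3) in high fat rats, and on the second slide 15490 ± 1747 (SD, n = 3) and 12208 ± 810 (SD, n = 3). On the second slide every high fat rat was below every control rat, for miR-26b too. This was also true of 29 of the 193 tested miRNAs (15.0%), and the exact permutation p of 0.1 is the smallest that 3 rats against 3 allow. The log2 difference between the diets was 0.060 on the first and -0.34 on the second slide for miR-26a, and -0.10 and -0.24 for miR-26b. The difference between the slides in the diet effect was -0.40 for miR-26a (exact permutation test within slides, p = 0.07) and -0.14 for miR-26b (p = 0.595), neither past the threshold. In the signals as listed, the diets overlapped on the second slide, with miR-26a at 14701 to 16598 in control and 15474 to 16317 in high fat rats. The 75th percentile of those arrays was 1384 ± 244 (SD, n = 3) in control and 1771 ± 159 (SD, n = 3) in high fat rats, and its part in the scaled difference was not tested.

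Between the slides, miR-26b differed more than miR-26a. The signal as listed was higher on the second slide for both, 1.40-fold for miR-26a and 1.66-fold for miR-26b, and for each member the ranges of the slides did not overlap (exact permutation, p = 0.0022 for each, the least possible for 6 against 6 arrays). The same absence of overlap was found for 25 of the 193 tested miRNAs (13.0%), and the 75th percentile of the arrays was itself 1.32-fold higher on the second slide. After scaling, the slides overlapped for both members, while 4 of the 193 miRNAs (2.07%) were higher on every array of the second slide. The log2 difference was then 0.083 for miR-26a (exact permutation p = 0.450) and 0.34, or 1.26-fold, for miR-26b (exact permutation p = 0.0173, and p = 0.0325 without H3). In a limma fit over all 193 miRNAs with the diet as a further term, the adjusted p of the slide was 0.744 for miR-26a and 0.201 for miR-26b, and 15 miRNAs (7.77%) had an adjusted p under 0.05, neither member among them.

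The ratio of the members within an array is not changed by dividing the array by 1 factor, and it is given here from the signals as listed (quantile normalization, which is no such division, does change it). It is a ratio of signals of different probes and not of molecules. It was 2.90 in C73, 3.08 in A110, 3.49 in C60, 2.89 in H10, 2.75 in A89 and 3.04 in A75 of the control group. In the high fat group it was 3.47 in C51, 3.87 in H3, 3.24 in H1, 2.61 in C25, 2.78 in H20 and 2.72 in A37. The highest and the lowest ratio were both in high fat rats, and H3 had the highest. The signal of miR-26a was thus 2.61 to 3.87 times that of miR-26b in every rat.

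The ratio was 3.02 ± 0.256 (SD, n = 6) in control and 3.11 ± 0.499 (SD, n = 6) in high fat rats, a log2 difference of 0.032 (exact two-sided permutation test, p = 0.753). The log2 difference was -0.034 without H3 and -0.0030 without C51, so its sign was not stable, and it was smaller than the spread between rats in each case. By slide, the ratio was 3.34 ± 0.345 (SD, n = 6) on the first, from 2.90 to 3.87, and 2.80 ± 0.149 (SD, n = 6) on the second, from 2.61 to 3.04. The overlap came from C73 of the first slide, which was below A75 of the second. The log2 difference of -0.25 passed the test (exact two-sided permutation test, p = 0.00433, within diets p = 0.01, and without H3 -0.21 with p = 0.00866). The diet difference of the log2 ratio was 0.16 on the first and -0.098 on the second slide (exact permutation test of the difference between slides, p = 0.055).

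**Figure D3:**
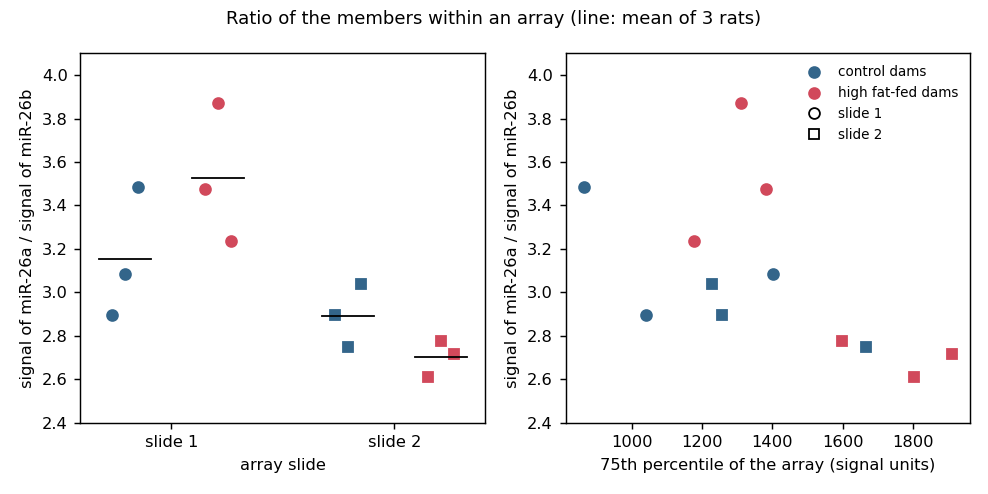
Ratio of the signal of miR-26a to that of miR-26b by slide and diet (left, lines are means of 3 rats) and against the array's 75th percentile in signal units (right), 1 point per rat, on axes that start at 2.4. Rats of the second slide sit between 2.61 and 3.04 and those of the first between 2.90 and 3.87.

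The log2 ratio was also set against the brightness of the arrays. Its Pearson correlation with the log2 75th percentile was r = -0.58 (permutation test, p = 0.0469, adjusted over 4 relations 0.0938, n = 12) and Spearman's rho was -0.68 (adjusted permutation p = 0.0381). Without the 2 rats with the most extreme percentiles, C60 and A37, r was -0.42. It was -0.71 without H3, -0.72 with the diet means removed and -0.21 with the slide means removed. Within the slides r was 0.13 on the first and -0.91 on the second (n = 6 each), so the relation was not present on both slides.

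The scaled signals of the members were correlated from rat to rat. The log2 scaled signals had r = 0.76 (permutation test, p = 0.0037, adjusted over the 4 relations 0.0148, n = 12) and rho = 0.78 (permutation p = 0.00399, adjusted 0.016). The correlation was 0.72 with the diet means removed, 0.72 without H3, 0.84 within the first slide and 0.97 within the second. Without H10 and A75, the rats farthest from the median of miR-26a, it was 0.56 and no longer passed the test (permutation p = 0.0948). Leaving out these 2 rats also narrows the range of miR-26a, so the drop cannot show that the correlation rests on them. It was 0.67 without H10 alone (permutation p = 0.025) and 0.72 without A75 alone (permutation p = 0.0141).

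Both values of a rat were divided by the same percentile, which by itself can make scaled values move together. The scaled signal of miR-26a had r = -0.98 with the log2 75th percentile on the second slide, where the listed signal varied by only 4.28% (coefficient of variation) and the percentile by 17.8%. For miR-26b the same correlation was -0.94. On the first slide they were -0.089 and -0.13. After quantile normalization the members had r = 0.23 (permutation p = 0.479). In the log2 signals as listed, r was 0.90 within the first slide and 0.92 within the second (n = 6 each), values that include the brightness of the arrays. The median correlation with the 161 other miRNAs detected on all arrays was 0.29 for miR-26a and 0.28 for miR-26b on the scaled signal.

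**Figure D4:**
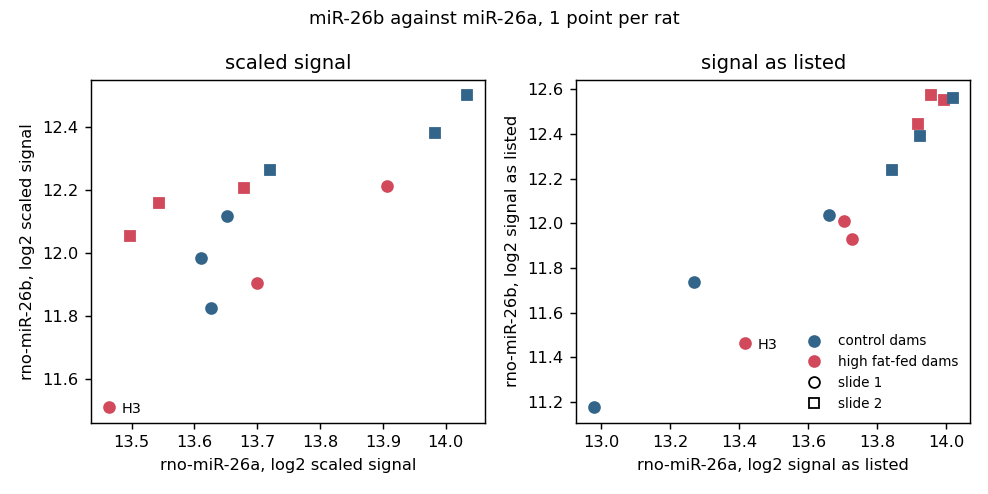
Log2 signal of miR-26b against that of miR-26a, 1 point per rat, scaled (left, r = 0.76 over 12 rats) and as listed (right), coloured by the diet of the dam with a marker for each slide. In the listed signals the 6 rats of the second slide form the bright end, and in the scaled signals H3 is lowest on both axes.

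The miRNAs whose scaled pattern over the 12 rats was most like that of miR-26a were miR-30e* (r = 0.95), miR-30c (0.83), miR-196a (0.80), miR-150 (0.80) and miR-98 (0.79), with miR-26b the 9th of 161. miR-98 belongs to the let-7 family, and miR-150 is known from lymphocytes. With the summed signal of the array as the scale, miR-26b was the closest of all 161 to miR-26a (r = 0.91), while miR-30e* had 0.68 and miR-30c 0.10. Unscaled, miR-26b was again the closest (r = 0.96, beside a median of 0.66 over all). Without H3, under the main scaling, miR-26b was the 26th (r = 0.72). There miR-30e* stayed the 1st, miR-30c was the 4th, miR-150 the 7th, miR-196a the 21st and miR-98 the 22nd. After quantile normalization miR-26b had r = 0.23 with miR-26a. The order of likeness for miR-26a thus depended on the scale and on H3. With all rats, miR-26b took place 9, 1 or 1 under the 3 scales ranked here.

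The closest to miR-26b were miR-352 (r = 0.93), miR-450a (0.93), miR-22* (0.91), miR-126* (0.91) and miR-145 (0.91), with miR-26a the 22nd. H3 had the lowest value of all 12 rats in each of these 5, as in miR-26b. For miR-126*, the star strand of an endothelial miRNA in an intron of Egfl7, H3 had 117 and the highest rat 506. Without H3 the 5 correlations were 0.82 to 0.88, and with the summed signal as the scale 0.85 to 0.93. The place of miR-26a was the 15th without H3 (r = 0.72), the 5th with the summed signal (r = 0.91) and the 5th unscaled (r = 0.96). These values are descriptions over 12 rats that share arrays and slides, and carry no test.

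Markers of vessel cells and the slow fibre miR-499 had high correlations with miR-26b, and those of blood and fibroblasts did not. The soleus holds vessels, blood and connective tissue beside muscle fibres, and in whole muscle fewer cells of a type and less RNA per cell cannot be told apart. Over the 12 rats, r with miR-26b was 0.77 to 0.91 for the endothelial miR-126 and miR-126*, 0.84 to 0.91 for the smooth muscle miR-143 and miR-145, and 0.82 for the slow fibre miR-499. Without H3 these were 0.48 to 0.83, 0.67 to 0.82 and 0.81. The other slow fibre marker, miR-208b, was detected on 11 arrays, and these correlations took in only miRNAs detected on all 12. For miR-26a the same ranges were 0.51 to 0.61, 0.66 to 0.71 and 0.53 with H3, and 0.34 to 0.72, 0.65 to 0.73 and 0.58 without it. The skeletal muscle miRNAs miR-1, miR-133a, miR-133b and miR-206 had r of -0.15 to 0.60 with miR-26b, and -0.028 to 0.63 without H3. With miR-26a their r was 0.42 to 0.64, and 0.62 to 0.91 without H3. The summed scaled signal of the endothelial pair was 4665 to 5895 in control and 2121 to 5685 in high fat rats, with H3 at 2121 and the other rats at 4345 or more. That of the smooth muscle pair was 5433 to 6641 in control and 2859 to 6479 in high fat rats, with H3 at 2859. All of these miRNAs were detected on all arrays, and their part in the miR-26b signal was not tested.

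The 5 blood miRNAs (miR-451, miR-144, miR-223, miR-142-3p and miR-142-5p) summed to 1642 to 3933 in control and 1436 to 4211 in high fat rats, the highest in H3, with r between -0.44 and -0.043 for miR-26a and between -0.34 and 0.26 for miR-26b. The 3 fibroblast miRNAs summed to 2755 to 7094 in control and 2342 to 7391 in high fat rats, with r of -0.013 to 0.10 and 0.094 to 0.37. Without H3 the r with miR-26b was 0.062 to 0.29 for the blood and -0.11 to 0.13 for the fibroblast miRNAs. Of the 5 epithelial miRNAs, miR-200c and miR-141 were detected on no array and the sum was 21.0 at most. The liver miRNA miR-122 was at 0 to 406.

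The spread over the arrays, with diet means but not slide means removed, was smaller for miR-26a than for miR-26b under the main scaling. It was not so to a like extent under the others. The SD of the log2 scaled signal within the diet groups was 0.18 for miR-26a, the 5th smallest of 162 miRNAs, and 0.26 for miR-26b, the 43rd, beside a median of 0.33. This SD takes in the log2 difference between the slides, 0.083 for miR-26a and 0.34 for miR-26b. The limma SE of the diet difference was 0.131 for miR-26a and 0.163 for miR-26b. With slides blocked it was 0.127 and 0.133, so the members were then closer. With the summed signal as the scale, of which miR-26a is itself a part, miR-26a had the smallest SD of all 162, 0.098, followed by miR-345-5p with 0.12 and miR-29a with 0.12, and miR-26b the 44th with 0.27. Without H3 miR-26a was the 15th with the main scaling and the 2nd with the summed signal, and miR-26b the 36th and the 48th. After quantile normalization the SDs were close, 0.16 for miR-26a (the 20th) and 0.18 for miR-26b (the 26th). Unscaled they were 0.33 (the 44th) and 0.47 (the 103rd). With the 75th percentile over all miRNAs they were 0.47 (the 86th) and 0.51 (the 97th) beside a median of 0.47, and without H3 0.48 and 0.47, with the order turned. That median of 0.47 was above the 0.42 of the unscaled signals, so this percentile, which takes in undetected miRNAs, did not lower the median spread. The place of miR-26a among the steadiest miRNAs, and its distance from miR-26b, thus held for some scalings and not for others.

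**Figure D5:**
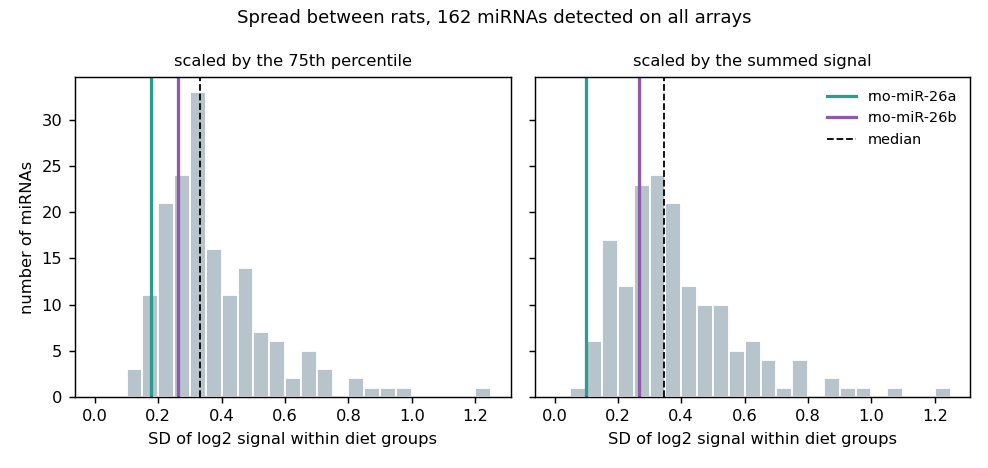
Number of miRNAs by the SD of their log2 signal within diet groups, for the 162 miRNAs detected on all arrays, scaled by the 75th percentile (left) or the summed signal (right), with the members and the median marked. miR-26a lies at the low end in both panels, at 0.18 and 0.098, and miR-26b at 0.26 and 0.27, below the median.

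Lists of miRNAs that share a regulator, a target, a tissue or a gene position with the family were set beside it. No miRNA of these lists passed the adjusted threshold between the diets in limma, and 1, miR-204, had an unadjusted p under 0.05. Of 25 miRNAs described as repressed by Myc, among them the let-7, miR-29 and miR-30 families, 24 were on the array and tested, with 1 positive and 23 negative log2 fold changes and a median of -0.18, beside -0.17 over all 193. They ran from -0.35 for let-7b (SE 0.22) to 0.00075 for miR-30a (SE 0.18), and unscaled 22 of the 24 were positive with a median of 0.13. miR-26a and miR-26b fell within this range.

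Of the 3 miRNAs that target Ezh2 as miR-26 does, miR-214 had a log2 fold change of -0.55 (SE 0.38) and miR-101b -0.062 (SE 0.14), with a median of -0.19 and 0 of 3 called. Of the 6 muscle miRNAs on the array, 2 had positive and 4 negative log2 fold changes with a median of -0.23, from 0.038 for miR-133a to -0.65 for miR-499. The value of miR-499, which lies in an intron of the slow myosin gene Myh7b, was 0.035 without H3. miR-486 was not on the array.

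Of 18 tested miRNAs from introns of genes other than Ctdsp, 4 had positive and 14 negative log2 fold changes with a median of -0.15. miR-204, from an intron of Trpm3, was at 141 ± 40.1 (SD, n = 6) in control and 87.0 ± 39.7 (SD, n = 6) in high fat rats, a log2 fold change of -0.80 (limma adjusted p = 0.685), or -0.55 without H3. The largest value was 0.16 for miR-139-5p, which sits in Pde2a and was detected on 10 arrays. miR-326 was detected on no array and miR-149 was not on it.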

How the data were processed

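Total RNA of 12 soleus muscles (6 per group) was labelled with Cy3 and hybridised to 8x15K rat arrays designed on miRBase 16.0. For every array the authors deposited the summed intensity of the spots of each miRNA after background subtraction by the scanner software, an error and a flag for detection. These intensity values were not normalized between arrays, and the series' value table held the same signals (0 values differed). On arrays the number of rats limits the precision.

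The 22 control rows were left out, leaving 677 miRNAs. Signals were divided by the 75th percentile of the array over 162 miRNAs (those detected on all arrays), rescaled by a common factor, raised to 5.17 where lower and log2-transformed. The diets were compared in limma 3.58.1 (R 4.3.3) with Benjamini-Hochberg adjustment across 193 miRNAs, those with a detection on 6 or more arrays. This step was tested on simulated data. Exact permutation tests (924 assignments, or 400 within slides) and correlations (100000 permutations) were run in Python 3.11.15. Sequences and the genes around them came from RefSeq tables of GRCr8, in which both members matched.

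The members, lists and tests were chosen with earlier results of these data known. Named miRNAs were the members, their star strands, their neighbours in signal, the 5 most correlated with each, the largest and smallest log2 fold change of each list, and the cell type markers. miR-208b-3p was taken for miR-208b. The slide tests, the correlations with the 75th percentile, the comparisons of spread and the marker correlations without H3 were added after the values were seen. Alternatives covered scaling, floor, detection filter, blocks, other tests and each rat left out, with the 12-array scaling kept.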

Additional observations from a re-analysis of the deposited data

How the results depend on the processing

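Neither member passed an adjusted or unadjusted threshold under any alternative tried, and the count of miRNAs with an adjusted p under 0.05 was 0 in all of them, the methods' t-test included (2 unadjusted). The sign of the members depended on the scaling. With the 75th percentile over all miRNAs the log2 fold changes were 0.032 for miR-26a and 0.00061 for miR-26b, without scaling 0.17 and 0.14, and after quantile normalization miR-26b was at 0.00095. In each of these the median of all tested miRNAs moved with them. With each rat left out, miR-26a stayed between -0.19 and -0.087 and miR-26b between -0.24 and -0.072, the latter nearest to 0 without H3.

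The log2 ratio of the members between the diets was -0.025 after quantile normalization and -0.015 with the first letter of the rat's label as a block, and between -0.034 (without H3) and 0.080 with each rat left out, negative also without C51 at -0.0030. The correlation of the members was 0.67 to 0.81 with each rat left out, 0.23 after quantile normalization and 0.56 without the 2 rats farthest from the median of miR-26a. The causes were not tested.

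Unadjusted p-values under 0.05, found for 2 miRNAs as reported, were found for 5 after quantile normalization, 4 with the summed signal, 1 when testing only miRNAs detected on all arrays, 8 with slides blocked, 5 with slides and rows blocked, 12 with arrays weighted and 1 with a trended, robust prior. With each rat left out the count was 1 to 15, the highest without H1, 7 without C25, 6 without H10 and 1 without A110. No paired analysis was possible because the labels do not match control rats to high fat rats.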
